A study of Rattus norvegicus with 12 samples.

Results

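The genes described here are 10 members of interleukin-6 (IL-6) family signalling: the ligands Il6, Lif and Cntf, the receptor subunits Il6r, Cntfr, Il6st, Lifr and Osmr, the transcription factor Stat3 and its feedback inhibitor Socs3. They were chosen by name. Every non-control probe of the array whose gene name, in the files or after an update to the current RefSeq symbol, was among these 10 was taken, which gave 11 probes of 41012 and 10 genes of 18332 with a name. Il6r was listed under the older name Il6ra, Stat3 had 2 probes, and every other gene had 1.

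RNA came from micropunches of the rostral ventrolateral medulla (RVLM), the brainstem region whose neurons drive sympathetic outflow to the heart and blood vessels. Punches were taken from male rats of the inbred F344 strain at 3 ages, young (3 months), middle-aged (12 months) and aged (24 months), and each age had 3 animals. No treatment or altered gene separated the groups, so age was the variable compared. Each RNA was hybridised with 1 dye to a whole rat genome array, and replicate 3 of each age was hybridised to a pair of arrays that were averaged, so that 12 arrays gave 9 animals.

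Most cytokines of this family signal through the shared transducer gp130, the product of Il6st, alone or with another subunit such as the receptors for LIF or oncostatin M. Some, among them IL-6 and CNTF, also bind a separate ligand-binding subunit. Receptor-bound Janus kinases phosphorylate STAT3, which enters the nucleus and induces target genes, among them Socs3, whose product binds the receptor complex and shuts the signal down. In the brain the family is known for reactive gliosis: microglia and astrocytes respond to IL-6, LIF and CNTF, and CNTF is made mainly by astrocytes.

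Probe sequences are given for the gene that changed, for the ligand that was not detected, for both Stat3 probes and for Cntfr, whose probe covers a hallmark of the receptor family. They are the deposited 60-base probes or their first 30 bases, 5′ to 3′, and positions are those in the array files on rat build rn3. No gene structure of that build was used here, so exons and untranslated regions are not assigned.
Il6r, chr2:182028429-182028488, minus strand, bases 1 to 30: tagtgctcattaaggaacattgtcagtttt
Il6, chr4:457279-458563, minus strand, bases 1 to 30: ccctagttcatatcttcaaacaagagataa
Stat3, 10-spot probe, chr10:89835515-89835574, minus strand, bases 1 to 30: cactcaaattccaatgtatactttctagtg
Stat3, 1-spot probe, chr10:89838189-89838539, minus strand, whole: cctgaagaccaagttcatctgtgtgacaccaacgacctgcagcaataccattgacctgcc
Cntfr, chr5_random:841309-841368, plus strand, whole: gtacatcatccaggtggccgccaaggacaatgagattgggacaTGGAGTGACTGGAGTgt
The capitals in the Cntfr probe, bases 44 to 58, mark codons for tryptophan, serine, any residue, tryptophan and serine, the conserved box of class I cytokine receptors. Of all 41012 probes, read on the printed strand, 14 (0.0341%) held such a run of codons, and among the members Cntfr was the only 1 of 11. The 1-spot Stat3 probe and the Il6 probe aligned across spans of 351 and 1285 bases, longer than the probe itself.

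Levels are log2 of the processed signal minus the 75th percentile of the same array, so that 0 is the signal of a probe at that percentile. Levels of different probes cannot be set against each other, because probes differ in how brightly they hybridise. A probe counted as detected on an array where its signal was well above background by the scanner software's own flag. Differences between ages were tested with limma over the 29797 probes detected on every array of at least 1 age, with p adjusted over all of them by Benjamini-Hochberg, and a probe passed at an adjusted p under 0.05. Only such probes are said to have risen or fallen. Of the 11 member probes, 10 (of 9 genes) were tested. The Il6 probe was not.

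Between 24 and 3 months, 1 of the 10 tested member probes passed, that of Il6r, and it was higher in aged rats. Over all tested probes 1.85% passed in this comparison, 1.39% higher and 0.463% lower in aged rats. The median difference of the members was 0.10 on the log2 scale, beside 0.02 over all probes. At an unadjusted p under 0.05 there were 4 of 10 members and 15.1% of all probes. The groups did not overlap for 4 member probes that were higher in aged rats (Lif, Il6r and both of Stat3) and 1 that was lower (Cntf), against 13.2% and 9.73% of all probes.

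Between middle-aged and young rats limma passed 0 of 10 member probes, where 0.175% of all probes passed, and 2 had an unadjusted p under 0.05, against 6.28% of all probes. The groups did not overlap for 2 members that were higher (Il6r and the 1-spot Stat3 probe) and 1 that was lower (Cntf), against 6.32% and 4.91%. Between aged and middle-aged rats limma also passed 0 of 10, where 0.00336% of all probes passed, and 2 had an unadjusted p under 0.05, against 10.5% of all probes. Here 2 members were higher without overlap (Il6r and the 10-spot Stat3 probe) and 0 lower, against 9.78% and 7.04%.

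**Figure D1:**
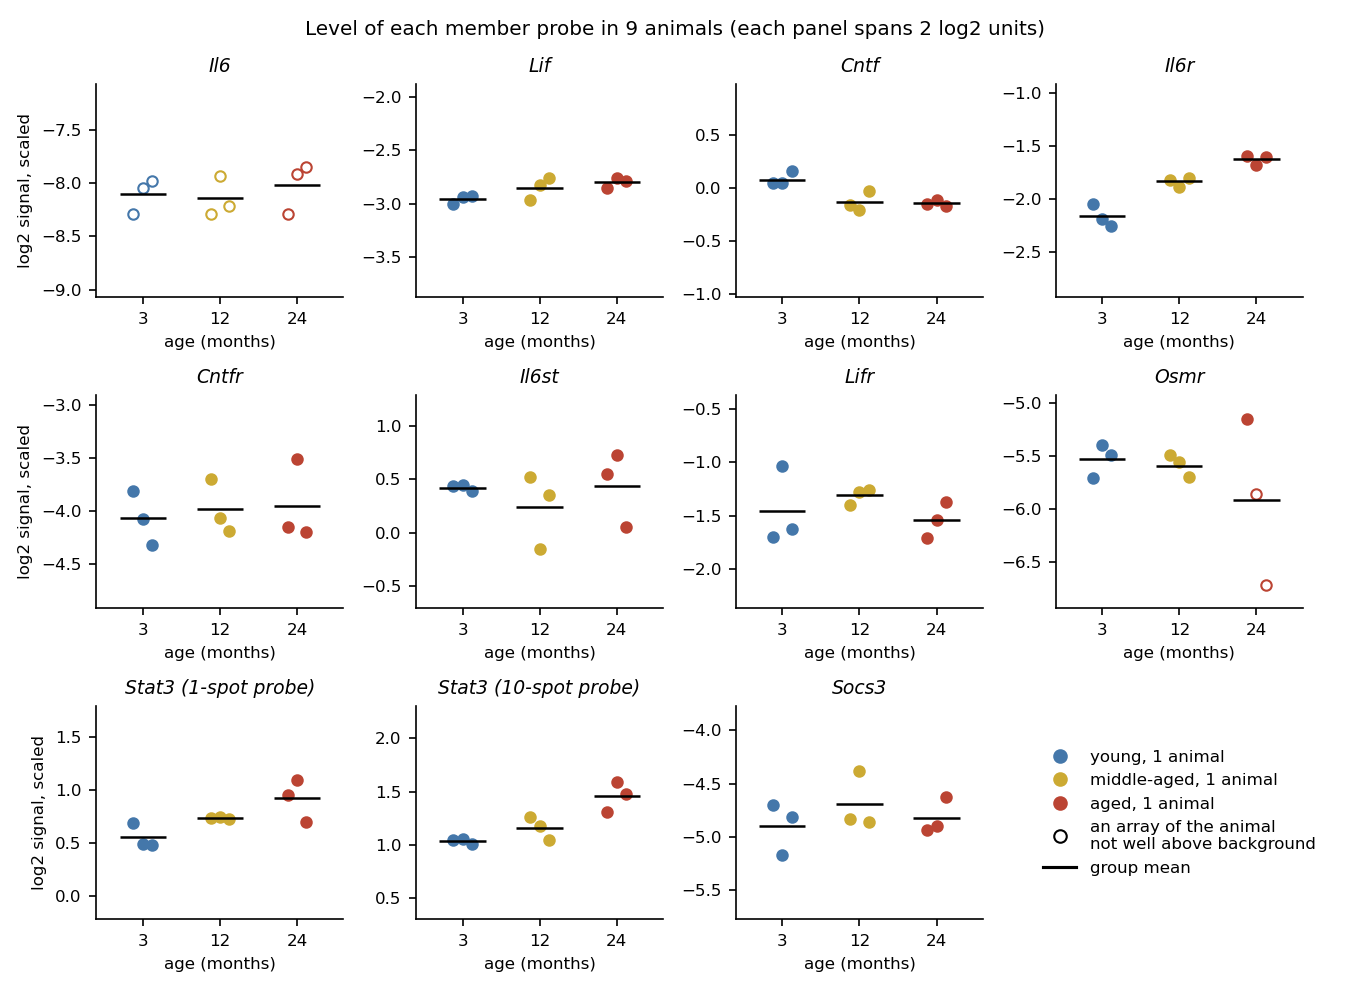
Level of each member probe (log2 signal minus the array's 75th percentile, y axis) in each of 9 animals against age in months, with the group mean as a bar and open points where an array of that animal was not well above background. Il6r is the member whose 3 ages are fully separated, and Il6 is open in every animal.

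The ligand Il6 was not detected at any age. Its probe, spotted 10 times on each array, was well above background on 0 of 12 arrays and at 1 of 120 spots. The median signal of its spots was 2.22 to 2.74 per array, while the dimmest probes called well above background had signals of 9.9 to 12.2. The levels were -8.29, -8.04 and -7.98 in young rats, -8.29, -7.93 and -8.21 in middle-aged rats, and -8.29, -7.91 and -7.85 in aged rats. These values lie at the array's background and give only a bound, so no fold was computed, and a level under the array's detection limit cannot be told from none.

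Lif, a ligand that acts through Lifr and gp130, was detected on 12 of 12 arrays. Its levels were -3.00, -2.94 and -2.93 in young rats, -2.97, -2.83 and -2.76 in middle-aged rats, and -2.85, -2.76 and -2.79 in aged rats. Every aged rat was above every young rat, and middle-aged rats spanned both. The difference was 0.16 ± 0.07 (SE; aged minus young, n = 3 animals per age), a fold of 1.11 with a 95% interval of 0.991 to 1.25, and limma's adjusted p was 0.366.

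Cntf, the astrocyte-derived ligand, was detected at all 120 of its spots. Its levels were 0.05, 0.05 and 0.16 in young rats, -0.16, -0.21 and -0.03 in middle-aged rats, and -0.15, -0.11 and -0.17 in aged rats. All 6 older animals lay below all 3 young ones, and the 2 older ages overlapped. The difference was -0.23 ± 0.08 between aged and young rats (0.854-fold, 95% interval 0.759 to 0.961, limma adjusted p = 0.207) and -0.22 ± 0.08 between middle-aged and young rats (adjusted p = 0.586). Neither passed.

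Il6r encodes the ligand-binding subunit for IL-6, and it is the member that rose with age. Its levels were -2.04, -2.19 and -2.25 in young rats, -1.82, -1.88 and -1.80 in middle-aged rats, and -1.59, -1.68 and -1.60 in aged rats. The lowest value of each older age lay above the highest of the age before it, a pattern that 1.08% of all tested probes showed. Aged over young rats, Il6r was 1.45-fold higher (95% interval 1.29 to 1.64; log2 difference 0.54 ± 0.08, SE, limma adjusted p = 0.0101), in 3 of 3 aged animals. In bulk tissue more cells of a type and more RNA per cell cannot be told apart. The steps in between did not pass on their own: 0.33 ± 0.08 for middle-aged minus young (adjusted p = 0.255) and 0.21 ± 0.08 for aged minus middle-aged (adjusted p = 0.429). The moderated F test over the 3 ages gave an adjusted p of 0.0309, where 1.02% of all probes passed.

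The Il6r values of the pairs of arrays of replicate 3 differed by 0.05 to 0.10 within an animal, less than the steps between ages. The arrays lay on 3 slides that were partly aligned with age. With slide as a block the aged minus young difference was 0.56 (limma adjusted p = 0.0259), and on slide 3 alone, the only slide with all 3 ages, it was 0.69 with 1 animal per age and no test. With normexp background correction of the raw signals in place of the processed signal it was 0.37 and no longer passed (adjusted p = 0.0513), and the F test's call was lost with slide as a block and whenever any animal other than young replicate 1 was left out.

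**Figure D2:**
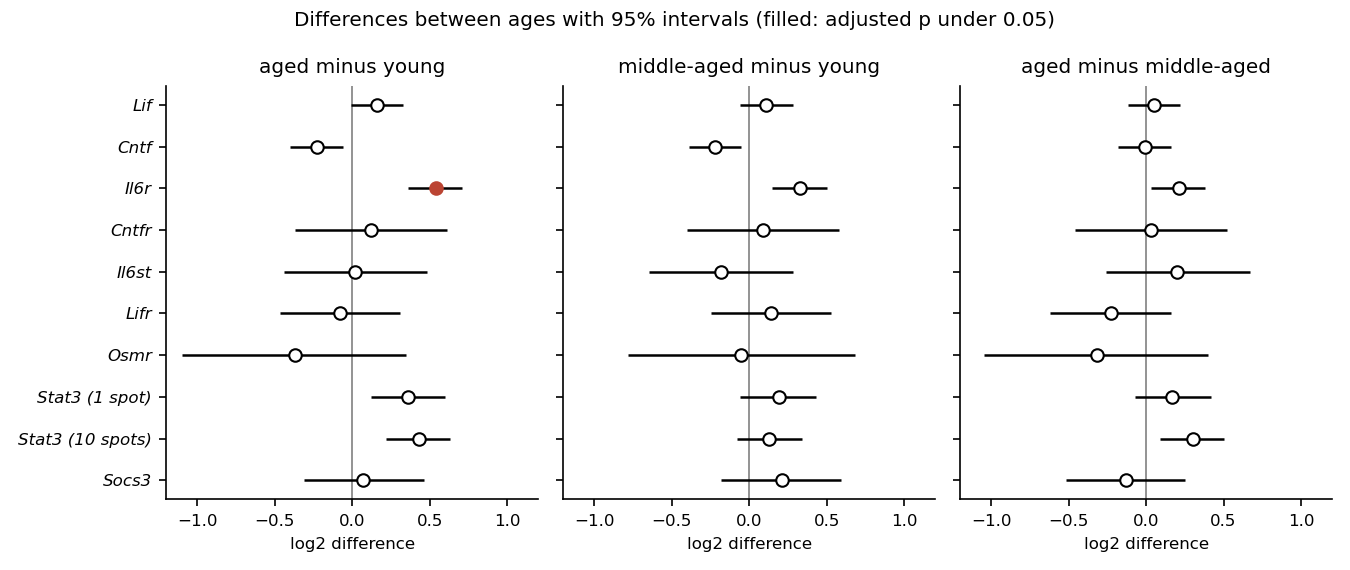
Log2 differences (x axis) of the 10 tested member probes between ages with 95% intervals, in the order aged minus young, middle-aged minus young and aged minus middle-aged; filled points passed at an adjusted p under 0.05. Il6r at 0.54 in the left panel is the only filled point, and the Osmr interval is the widest.

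The 4 other receptor subunits did not pass in any comparison. Il6st, encoding gp130, was detected on 12 of 12 arrays, with levels of 0.44, 0.45 and 0.39 in young rats, 0.52, -0.15 and 0.35 in middle-aged rats, and 0.55, 0.73 and 0.05 in aged rats. The young rats were tightly grouped and lay inside the range of the aged rats. The aged over young fold was 1.01, with a 95% interval of 0.735 to 1.40 and a limma adjusted p of 0.974. Lifr, the LIF receptor subunit, had levels of -1.70, -1.03 and -1.63 in young rats, -1.40, -1.28 and -1.26 in middle-aged rats, and -1.71, -1.54 and -1.37 in aged rats, and the ages overlapped (aged minus young -0.08 ± 0.17, limma adjusted p = 0.851).

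Cntfr, the CNTF-binding subunit, had levels of -3.81, -4.08 and -4.32 in young rats, -3.70, -4.07 and -4.19 in middle-aged rats, and -4.15, -3.51 and -4.20 in aged rats. The spread within each age was wider than the difference of 0.12 ± 0.22 between aged and young rats (limma adjusted p = 0.832). Osmr, the oncostatin M receptor subunit, was near the detection limit: it was detected on 4 of 4 arrays at 3 months, 4 of 4 at 12 months and 1 of 4 at 24 months. Its levels were -5.71, -5.40 and -5.49 in young rats, -5.49, -5.56 and -5.70 in middle-aged rats, and -5.15, -5.86 and -6.71 in aged rats. In aged rats 2 and 3 the signal was not well above background, so those values are only bounds. The probe entered the test through the 2 younger ages, the fitted difference between aged and young rats (-0.37 ± 0.32, limma adjusted p = 0.617) rests on these bounds, and without aged replicate 3 it was 0.03.

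Stat3, the transcription factor at the end of the pathway, was higher in aged rats on both probes without passing on either. The probe with 10 spots gave 1.04, 1.05 and 1.01 in young rats, 1.26, 1.18 and 1.04 in middle-aged rats, and 1.31, 1.59 and 1.48 in aged rats. All aged animals lay above all other animals. The aged over young fold was 1.34 (95% interval 1.16 to 1.55; 0.43 ± 0.09 on the log2 scale, limma adjusted p = 0.0595), and aged minus middle-aged was 0.30 ± 0.09 (adjusted p = 0.363). Treating the 12 arrays singly with animal as a random block left the difference at 0.43 and brought limma's adjusted p to 0.0186. That fit counts 12 arrays from 9 animals, and over all probes its calls were 680 in place of 552. It was the only 1 of 20 tested alternative settings in which this probe passed, and limma's adjusted p in the others was 0.0561 to 0.179.

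The other Stat3 probe gave 0.69, 0.49 and 0.48 in young rats, 0.74, 0.75 and 0.73 in middle-aged rats, and 0.95, 1.09 and 0.70 in aged rats. Aged rats were all above young rats, and 1 aged rat lay below the middle-aged ones. The fold was 1.28 (95% interval 1.08 to 1.52; 0.36 ± 0.11, limma adjusted p = 0.162), so the probes of this gene gave the same direction and similar sizes. Socs3, the feedback inhibitor that STAT3 induces, had levels of -4.70, -5.17 and -4.81 in young rats, -4.83, -4.38 and -4.86 in middle-aged rats, and -4.94, -4.90 and -4.63 in aged rats. The ages overlapped, and aged minus young was 0.07 ± 0.17 (95% interval -0.31 to 0.46, limma adjusted p = 0.868). The Socs3 probe was detected on 12 of 12 arrays but was dim, with signals of 17.7 to 33.4. Its values on the pairs of arrays of replicate 3 differed by 0.32 to 0.58 within an animal, more than the fitted differences between ages.

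Besides the members, 61 genes of the pathway were examined as lists, of which 54 had a probe and 49 were tested. Between aged and young rats limma passed only Ptpn6 among them, 1 of 49, where 1.85% of all probes passed. At an unadjusted p under 0.05 there were 11 higher and 4 lower, against 15.1% of all probes. Between middle-aged and young rats 0 passed (2 higher and 2 lower unadjusted), against 0.175% of all probes passed and 6.28% unadjusted. Between aged and middle-aged rats 0 passed (10 higher and 0 lower unadjusted), against 0.00336% and 10.5%. Ptpn6 encodes the phosphatase SHP-1, a brake on cytokine receptor signalling that is abundant in blood-derived cells and microglia. Its levels averaged 0.57 ± 0.18 in young rats, 1.08 ± 0.05 in middle-aged rats and 1.53 ± 0.20 in aged rats (SD, n = 3). It rose by 0.96 ± 0.12 between young and aged rats (limma adjusted p = 0.00609), and relative to the young mean the aged animals lay at 0.82 to 1.18. Among the brakes on JAK and STAT signalling, 1 of 14 tested genes passed and their median difference was 0.10. The related phosphatase gene Ptpn11 was 5.18 ± 0.18 in aged and 4.60 ± 0.16 in young rats (0.59 ± 0.16, adjusted p = 0.119), and Pias1 differed by 0.20 (adjusted p = 0.414).

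Of the Janus kinases and other STATs, limma passed 0 of 8 between aged and young rats, with 3 at an unadjusted p under 0.05. Over all probes these shares were 1.85% and 15.1%. The median difference of this list was 0.13. Stat5a, which many cytokine receptors activate, differed by 0.24 ± 0.08 (adjusted p = 0.230). Of 3 tested genes for other ligands and their partners, 0 passed and 1 had an unadjusted p under 0.05. Ctf1, the ligand cardiotrophin-1, differed by 0.01. Of the other family receptors, Il11ra1 and Il27ra differed by 0.10 and -0.16. Adam17, the protease that sheds the IL-6 receptor from cells, differed by -0.39 ± 0.11 (adjusted p = 0.136), and Adam10 by 0.04.

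The STAT3 target genes were the largest list. Limma passed 0 of 19 between aged and young rats, with 5 higher and 2 lower at an unadjusted p under 0.05. Over all probes 1.85% passed and 15.1% had an unadjusted p under 0.05. The median difference of the list was 0.16. Gfap, the filament of reactive astrocytes, was at 1.56 ± 0.24 in young, 1.57 ± 0.37 in middle-aged and 2.47 ± 0.36 in aged rats (aged minus young 0.92 ± 0.23, limma adjusted p = 0.102). Bcl2l1, a survival gene, was at 3.14 ± 0.11 in aged and 3.14 ± 0.11 in young rats. In promoters of 250 bases before to 50 after the transcription start (RefSeq, GRCr8), the STAT-type palindrome TTCNNNGAA, which reads the same on both strands, occurred in 0 of the 8 members with a promoter entry. It was found in 5 of 19 promoters of the target genes (26.3%), which belong to 4 of 15 genes with an entry, and in 8.87% of all 33469 promoters. Promoters of Bcl2l1 overlap and share the same sites, so that stretch was counted more than once. Another of the 4 genes, Steap4, had no probe on the array. Over all pathway list genes the palindrome was in 7 of 46 promoters (15.2%). These matches describe letters in a window and are not binding sites.

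**Figure D3:**
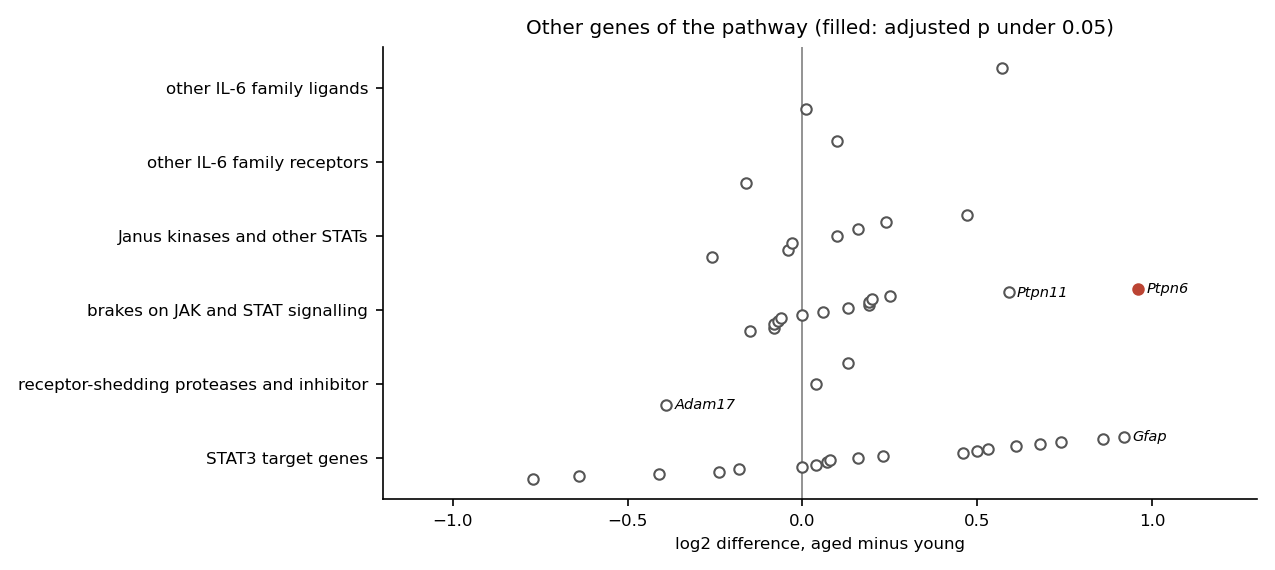
Log2 difference between aged and young rats (x axis) of the other tested genes of the pathway reported here by list (y axis), with filled points for an adjusted p under 0.05. Ptpn6 at 0.96 is the only filled point, and the STAT3 target genes lie on both sides of 0, between -0.77 and 0.92.

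Cell type markers were read beside these results. Over all tested probes 1.39% passed as higher and 0.463% as lower in aged than in young rats, and 15.1% had an unadjusted p under 0.05. The microglia markers rose in 9 of 12 genes between young and aged rats, with a median difference of 0.84. With each animal set against the mean of the young rats, the list's median lay at -0.10 to 0.08 in young rats, 0.41 to 0.58 in middle-aged rats and 0.73 to 0.97 in aged rats, the same order of ages as Il6r and Ptpn6. The summed linear signal of the 12 markers, in units of each array's 75th percentile, was 75.7 to 84.8 in young, 109 to 129 in middle-aged and 142 to 172 in aged rats, and all 12 were detected on all arrays. Its part in the Il6r and Ptpn6 results was not tested. Limma passed 0 of 10 astrocyte markers, with 1 higher and 1 lower at an unadjusted p under 0.05 and a median difference of -0.02. The higher one was Gfap (0.92 ± 0.23), the same probe as on the STAT3 target list, and the lower one was Aldh1l1 (-0.54 ± 0.15). Of the oligodendrocyte markers 2 of 8 fell, with a median difference of -0.45. Blood leukocyte and perivascular macrophage markers passed in 1 of 4, at a median of 1.41. Only 3 of these 4 were detected on all arrays. S100a8, with the largest difference (2.41), was not, so this median rests partly on values near background. The red blood cell markers passed in 0 of 5 (5 higher unadjusted), at 0.87, with aged rats between 0.40 and 1.28 above the young mean. Of the 5 tested markers of the C1 neurons of the RVLM, 4 were detected on all arrays and 0 passed (2 lower unadjusted). Pnmt was not analysed here. Lymphocyte markers passed in 1 of 4, at a median of 0.42. The Schwann cell markers passed in 0 of 3 (1 lower unadjusted), at -1.36, which is the value of Prx, detected on 7 of 12 arrays. Of the other lists, 0 markers passed in neurons, endothelium, pericytes and fibroblasts, or choroid plexus and ependyma, with 5 of 6 pericyte and fibroblast markers and 2 of 8 endothelial markers lower at an unadjusted p under 0.05.

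**Figure D4:**
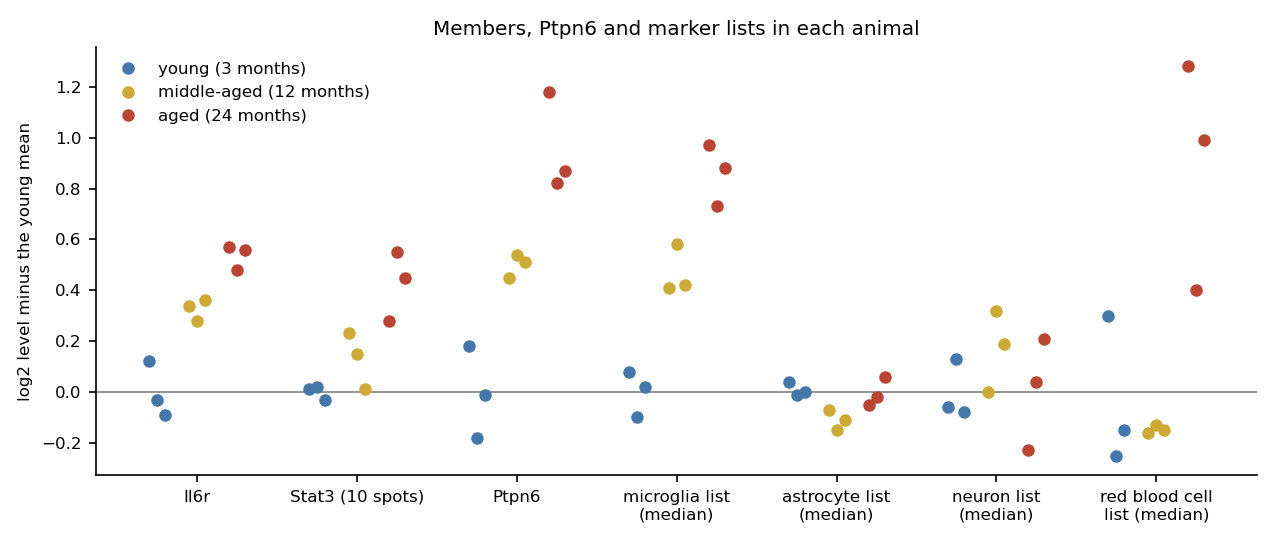
Log2 level minus the young mean (y axis) in each animal for Il6r, Stat3 (10 spots), Ptpn6 and the median of 4 marker lists, coloured by age. Il6r, Ptpn6 and the microglia list are ordered by age without overlap, while the astrocyte list stays within 0.15 of the young mean.

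The named genes whose levels followed Il6r most closely over the 9 animals were C19h16orf74 (Pearson r = 0.995), Urah (r = 0.993), Ikzf1, a lymphoid and myeloid transcription factor (r = 0.991), Blnk, an adaptor of B cells and macrophages (r = 0.988), and Tmem176b (r = 0.981). They had the highest r among genes with a name, predicted loci left out, over 29789 probes compared, and 308 other probes had r over 0.9. The points share their arrays and span the 3 ages, so that r contains the difference between ages. In the same order, the aged minus young differences were 0.53 ± 0.08, 1.23 ± 0.15, 1.11 ± 0.14, 1.02 ± 0.10 and 0.86 ± 0.10.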

How the data were processed

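Per the submitters' processing notes, arrays were read out in Agilent Feature Extraction 9.5.1.1. The deposited files give the linear intensity of each spot. The processed signal is background-subtracted and detrended, per the file headers, and no scaling between arrays was applied. The deposited flags per spot are 0 or 1 and mark outliers, saturation and signals well above background. The deposited series matrix is a score, standardised within each array and correlated at 1 with the log2 processed signal. It served as an alternative.

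Outliers (57 to 140 of the 43379 non-control spots per array) were set missing, and 0 spots were saturated. Between 73.5% and 77.1% were well above background. The number of arrays limits the precision. Spots of a probe were averaged in log2, the 75th percentile of the array was subtracted, and both arrays of replicate 3 were averaged. A probe was detected on an array where most of its spots were well above background, a rule set after the files were seen. Tests across probes used limma 3.58.1 under R 4.3.3 (lmFit and eBayes, two-sided, 9 animals in 1 fit), first tested on simulated data. Intervals are at 95%. The labels call the replicates biological. Same-numbered animals of different ages correlated between -0.407 and 0.378 in their deviations, so the numbers were not used to pair them.

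Members and lists were chosen with earlier results of these data known. Genes of the lists were named where a probe passed in any comparison, besides the 2 of highest mean level per list, and Ptpn11, Stat5a, Adam17 and Gfap are among those. Some genes that this rule names are not reported here. For list genes with several probes, the probe with the highest mean level was used. Alternatives were background correction, normalization, the filter on dim probes, 1 probe per gene, the series matrix, slide and replicate blocks, single arrays and leaving out each animal.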

Additional observations from a re-analysis of the deposited data

How the results depend on the processing

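Between aged and young rats 1 member probe passed. The count was 0 with normexp background correction, 2 with the 12 arrays taken singly and animal as a random block (Stat3 joined Il6r), and 4 with unadjusted p. The 0 calls of middle-aged against young rats and of aged against middle-aged rats became 2 each with unadjusted p and stayed 0 otherwise. For the F test over ages the count of 1 became 0 with normexp, with no filter on dim probes, with the series matrix, with slide as a block and with the replicate block, and 4 unadjusted. Leaving out each animal in turn gave 0 to 1, and the call stayed only without young replicate 1. Il6r passed at adjusted p of 0.0136 to 0.0499 with each animal left out, at differences of 0.49 to 0.60, and with the replicate block at 0.54 (adjusted p = 0.0324). Over all probes, the 552 calls of aged against young became 320 with normexp, 318 with no filter, 320 with slide as a block, 680 on 12 arrays, 378 with the replicate block and 280 to 544 with an animal left out. The 52 of middle-aged against young became 20 with normexp, 5 with no filter, 1 with the replicate block and 2 to 18 with an animal left out. The F test's 304 became 211, 152, 175 and 164 with normexp, no filter, slide and replicate blocks, and 90 to 265 with an animal left out. Signs turned only for differences that passed under no setting; the largest of them was Osmr aged minus young, -0.37 as reported. On slide 3 alone, with no test, aged minus young turned to -0.05 for Cntfr, -0.32 for Il6st and 0.20 for Lifr, and aged minus middle-aged to -0.15 for Lif, -0.09 for Cntfr, -0.28 for Il6st and -0.06 for the 1-spot Stat3 probe. Aged minus middle-aged Lif was -0.01 with quantile normalization and -0.01 on the series matrix. Values on the series matrix are differences of standardised scores, not of log2 signal, so only their signs are compared. Cntfr was -0.00 (aged minus young) and -0.01 (middle-aged minus young) with normexp, and aged minus middle-aged it was -0.06 with quantile normalization, -0.02 on the matrix and -0.02 with slide as a block. Aged minus young Il6st was -0.00 on the matrix and -0.00 with the first array of replicate 3 only. Socs3 aged minus young was -0.06 with normexp, -0.03 with quantile normalization and -0.01 on the matrix; middle-aged minus young it was -0.08 with normexp; aged minus middle-aged it was 0.02 with normexp and 0.04 with the first array only. With an animal left out, aged minus young ranged from -0.11 to 0.25 for Cntfr, -0.12 to 0.22 for Il6st, -0.21 to 0.13 for Lifr, -0.75 to 0.03 for Osmr and -0.07 to 0.17 for Socs3. Middle-aged minus young ranged from -0.06 to 0.22 for Cntfr, -0.32 to 0.01 for Il6st and -0.14 to 0.01 for Osmr. Aged minus middle-aged ranged from -0.01 to 0.09 for Lif, -0.05 to 0.04 for Cntf, -0.19 to 0.17 for Cntfr, -0.70 to 0.08 for Osmr and -0.23 to 0.02 for Socs3. The cause was not tested. Il6 and Osmr lie at or near background, which limits what their signals can show.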

Other observations

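Serpina3n, an acute-phase inhibitor on the STAT3 target list, varied between animals of the same age. The SD was 0.85 in young, 2.27 in middle-aged and 2.49 in aged rats. Middle-aged minus young was 2.19 ± 1.36 (SE, limma adjusted p = 0.941). Aged minus young was 0.86 ± 1.36 (adjusted p = 0.806), and aged minus middle-aged -1.33 ± 1.36 (adjusted p = 0.734). Its levels were -3.53, -4.15 and -2.46 in young rats, -0.07, 0.31 and -3.81 in middle-aged rats, and -3.91, 0.35 and -4.00 in aged rats. The highest values, in 2 middle-aged rats and 1 aged rat, lay near the array's 75th percentile, and those of the other 6 animals well below it. The cause was not tested.

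Several genes of the pathway were too dim to test. Of 12 arrays, Il11 was well above background on 1, Osm on 4, Stat4 on 1, Lbp on 2 and Socs1 on 8.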
